A study of Mus musculus with 12 samples.

Results

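Wild-type macrophages on a high-fat diet were compared with wild-type macrophages on chow: 3 libraries per diet, 6 of the 12 RNA-seq libraries in the series, read across all 12339 genes of the count table. The libraries were chosen by their genotype and diet labels, and no measured value entered the choice. All mice, chow controls included, had received a viral vector at 8 weeks of age. Together with the Western-type high-fat diet (HFD), the vector makes the animals hypercholesterolemic, per the labels. After 4 weeks, macrophages were drawn into the peritoneum with sterile thioglycolate, collected by lavage and lysed in Trizol for total-RNA libraries. The other 6 libraries, meKO on chow and meKO on HFD with 3 each, come from the myeloid protein kinase C epsilon knockout that the series title names. They entered the fit because all 4 groups shared 1 estimate of the spread. The labels give no strain, no recombinase line and no individual per library, so p-values measure only the spread between these libraries, which may be technical. The cells are recruited exudate cells of the peritoneum rather than plaque macrophages, and the chow controls carry the vector too.

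Macrophages take up cholesterol from lipoproteins and cannot degrade its ring. When sterol in the endoplasmic reticulum is low, the SCAP protein escorts SREBP transcription factors to the Golgi, where proteases free the part that switches on genes of cholesterol synthesis and uptake; when sterol is plentiful, INSIG proteins hold SCAP back. Oxysterols and desmosterol activate the LXR nuclear receptors, which drive the transporters that export cholesterol and enzymes that desaturate fatty acids and remodel phospholipids. Both systems are known to respond to cholesterol loading of macrophages.

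The 6 WT libraries held 28863694 to 34299491 counts each. All 14 macrophage identity genes were in the table, and Lyz2, the myeloid lysozyme, was at 30482 to 53835 CPM (counts scaled to a common library size with trimmed means). Prkce, the gene named in the knockout, was measured at 4.27, 4.44 and 2.35 CPM in WT chow, 2.01, 2.89 and 2.53 CPM in WT HFD and 0.95 to 1.78 CPM in meKO; gene-level counts do not single out a deleted exon. Libraries differed in how their counts moved with transcript length. Across genes, the rank correlation of a library's deviation with length was 0.57 and 0.64 in WT chow 1 and 2, -0.31 in WT chow 3, and -0.41, -0.39 and -0.53 in the HFD libraries (11532 genes with a length, described without a test because all genes of a library share its RNA and depth). WT chow 3 therefore stood with the HFD libraries on this measure. A second fit, from which a smooth trend on transcript length and GC content was removed in every library, is called the length-corrected fit and is given beside the results it changed; the 807 genes without a length were left as counted.

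Of 12339 genes, 2634 (21.3%) passed an adjusted p of 0.05 by edgeR's quasi-likelihood test and are referred to as called: 1172 (9.5%) rose on HFD and 1462 (11.8%) fell. Scaling by library totals in place of trimmed means left 31.3% of calls higher, against 44.5%. Most changes were modest, with 260 called genes at 2-fold or more, of which 93 rose and 167 fell. The HFD and chow values did not overlap in 4852 genes (39.3%). The length-corrected fit called 1595 genes (5.21% of all genes higher and 7.72% lower), 1234 of them shared with the uncorrected fit. Counts of calls depended on single libraries: 129, 319 and 4921 genes were called without WT chow 1, 2 and 3, and 460, 1672 and 96 without WT HFD 1, 2 and 3. A set of 83 genes was called whichever WT library was left out.

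Cholesterol synthesis genes were lower on HFD. Of 20 listed enzymes of the pathway, 13 fell, none rose, and 7 were not called, against 11.8% of all genes that fell; the median log2 fold change was -0.58, against -0.035 over all genes. The promoters of 4 genes that fell are shown because the sterol genes carry the main result here: the 250 bases before the annotated start of each, 5′ to 3′ (RefSeq, GRCm38.p6), with capitals marking CCAAT on either strand, the element bound by NF-Y, and TCACNCCAC, a motif of the sterol regulatory element type, searched on both strands. The 2 motifs do not overlap in these windows.
Hmgcs1 (chr13:119690101-119690350, plus strand): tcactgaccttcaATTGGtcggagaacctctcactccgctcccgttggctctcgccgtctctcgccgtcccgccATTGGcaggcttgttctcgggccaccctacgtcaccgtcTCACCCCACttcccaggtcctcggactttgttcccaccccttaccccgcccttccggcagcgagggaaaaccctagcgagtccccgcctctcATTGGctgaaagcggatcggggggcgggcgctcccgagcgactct
Idi1 (chr13:8885356-8885605, plus strand): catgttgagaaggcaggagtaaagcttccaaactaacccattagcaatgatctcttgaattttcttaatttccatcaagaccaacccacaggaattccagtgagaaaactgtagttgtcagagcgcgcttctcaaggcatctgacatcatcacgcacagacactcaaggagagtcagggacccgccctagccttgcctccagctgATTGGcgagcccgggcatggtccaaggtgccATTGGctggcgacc
Cyp51 (chr5:4104698-4104947, minus strand): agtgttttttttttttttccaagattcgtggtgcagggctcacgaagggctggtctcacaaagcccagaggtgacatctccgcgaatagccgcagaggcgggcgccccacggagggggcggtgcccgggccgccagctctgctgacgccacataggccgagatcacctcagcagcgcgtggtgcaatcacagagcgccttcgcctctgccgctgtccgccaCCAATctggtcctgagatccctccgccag
Srebf2 (chr15:82147019-82147268, plus strand): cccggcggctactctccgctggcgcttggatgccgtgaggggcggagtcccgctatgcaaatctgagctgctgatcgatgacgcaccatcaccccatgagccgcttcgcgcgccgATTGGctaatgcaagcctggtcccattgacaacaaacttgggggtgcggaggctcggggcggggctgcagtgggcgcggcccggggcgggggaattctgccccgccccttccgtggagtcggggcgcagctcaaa
CCAAT was found in 14 of the 15 enzyme genes with a promoter in the table (93.3%) and in 40.9% of the 9553 listed genes with one. It was in 8 of 8 enzyme genes that fell and 6 of 7 that were not called. Among all genes with a promoter it was found in 41.4% of those that rose and 39.4% of those that fell. In the other function lists its share ran from 0% of efferocytosis, complement and Fc receptor genes to 85.7% of MHC class II genes. It was in 82.6% of cell cycle genes. A high share was therefore not particular to the sterol genes. TCACNCCAC was in Hmgcs1 alone among the enzymes and in 1.16% of all genes. These are letter matches in a fixed window, not measured binding.

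Later steps of the pathway, after squalene, fell in each of the following genes. Hsd17b7, a ketoreductase of the sterol ring, was at 4.02, 3.4 and 3.27 CPM on chow and 1.2, 1.62 and 1.2 CPM on HFD (log2 fold change -1.41 ± 0.25 (SE), adjusted p = 0.00853). Every HFD library lay under the lowest chow library. Sqle (chr15:59315092-59331193, GRCm38), the squalene epoxidase, stood at 15.6, 13.4 and 13.6 CPM on chow and 5.08, 5.41 and 4.48 CPM on HFD (log2 fold change -1.51 ± 0.20 (SE), adjusted p = 0.00271). Its 3 values within a diet lay close together and the diets were far apart. Cyp51, the lanosterol demethylase, was at 24.9, 17.5 and 26.4 CPM on chow and 10.3, 9.33 and 10.5 CPM on HFD (log2 fold change -1.19 ± 0.18 (SE), adjusted p = 0.00473). Sqle and Cyp51 were called under all 28 alternative settings.

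Hmgcs1, which makes HMG-CoA early in the mevalonate pathway, was at 69.5, 56.6 and 61.6 CPM on chow and 40.4, 43.6 and 39.6 CPM on HFD (log2 fold change -0.60 ± 0.13 (SE), adjusted p = 0.0143). Its groups did not overlap. Idi1, the isopentenyl isomerase, spread more on chow, with 12.2, 9.54 and 19.1 CPM on chow and 6.63, 5.72 and 7.13 CPM on HFD (log2 fold change -1.06 ± 0.26 (SE), adjusted p = 0.0207). Fdps (log2 -0.99, adjusted p = 0.0144), Lss (log2 -0.82, adjusted p = 0.0114), Dhcr7 (log2 -0.67, adjusted p = 0.0123) and Sc5d (log2 -0.62, adjusted p = 0.0219) also fell, as did Fdft1 and Mvk at smaller sizes. The 7 that were not called, Acat2, Pmvk, Mvd, Tm7sf2, Msmo1, Nsdhl and Ebp, lay between log2 -0.23 and 0.22 with overlapping groups.

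The enzyme list counted 10 falls in the length-corrected fit, where its median was -0.49. Without WT chow 1 or WT HFD 3 it counted 3, without WT HFD 1 it counted 5, without WT HFD 2 it counted 8, and without WT chow 2 and 3 it counted 10 and 11. As a mean over the 20 enzymes on the log2(CPM + 1) scale, set to 0 at the WT chow mean, the chow libraries were at 0.07, -0.19 and 0.12 and the HFD libraries at -0.54, -0.52 and -0.48. The groups did not overlap, with WT chow 2 the nearest of the chow libraries to the HFD libraries.

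**Figure D1:**
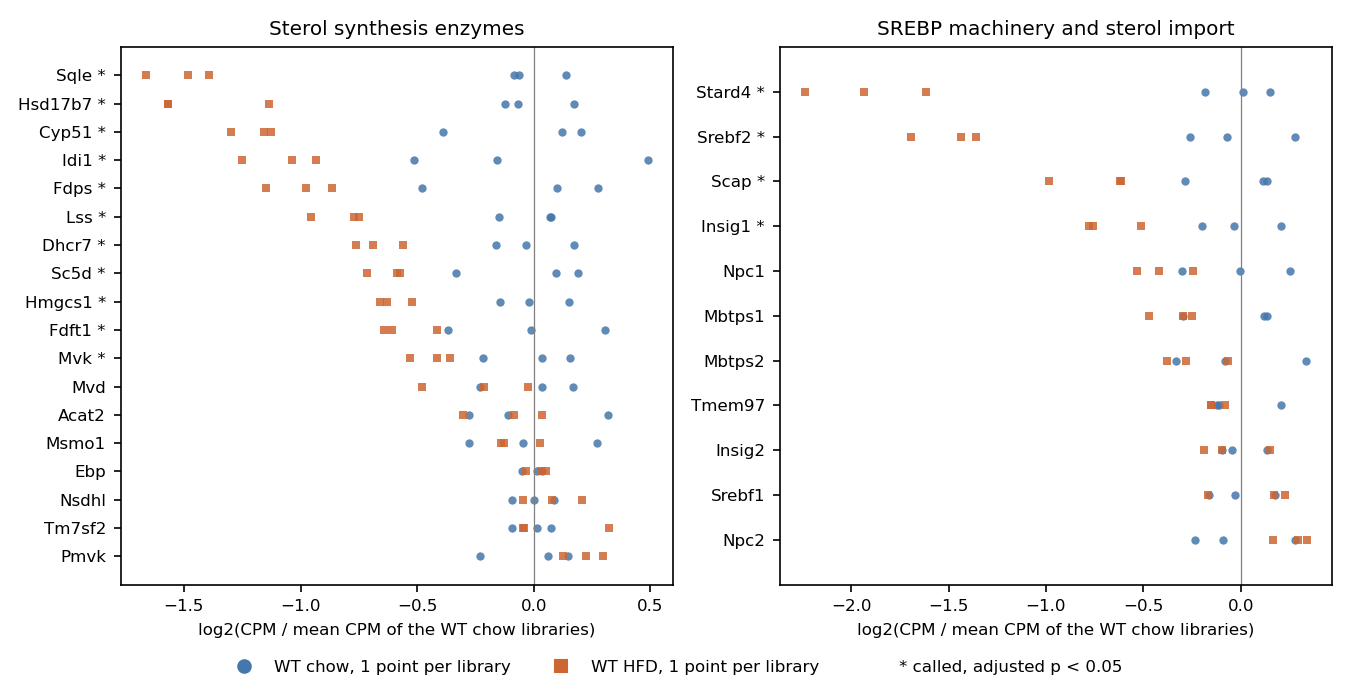
Expression of 18 of the 20 sterol synthesis enzymes and 11 of the 12 listed genes of SREBP processing and sterol import in each WT library, as log2 of CPM over the WT chow mean; circles are chow and squares are HFD libraries, and an asterisk marks an adjusted p under 0.05. The HFD points of Sqle, Stard4 and Srebf2 lie clear of the chow points, while Ebp, Nsdhl, Insig2 and Srebf1 overlap.

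Of the 2 SREBP genes, 1 fell. Srebf2, which encodes the SREBP isoform devoted to cholesterol genes, was at 35.8, 28.1 and 24.6 CPM on chow and 9.13, 11.5 and 10.9 CPM on HFD (log2 fold change -1.49 ± 0.16 (SE), adjusted p = 0.000678). It was called under all 28 alternatives. Srebf1, which encodes the isoforms that act on fatty acid genes and is itself an LXR target, was at 29, 33.4 and 26.4 CPM on chow and 33.3, 34.7 and 26.3 CPM on HFD (log2 fold change 0.09 ± 0.16 (SE), adjusted p = 0.714), with overlapping groups, and passed the test in the opposite direction from Srebf2 in the length-corrected fit (log2 0.38, adjusted p = 0.028). Scap (log2 -0.73, adjusted p = 0.0183) and Insig1 (log2 -0.68, adjusted p = 0.0191), the sterol-sensing escort and its retention partner, fell. Insig2, the second retention partner, was not called (log2 -0.04, adjusted p = 0.833).

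Stard4, a cytosolic sterol carrier, was at 11.7, 9.28 and 10.6 CPM on chow and 2.75, 3.44 and 2.23 CPM on HFD (log2 fold change -1.91 ± 0.26 (SE), adjusted p = 0.00287). Npc1 (log2 -0.40, adjusted p = 0.055) and Npc2 (log2 0.27, adjusted p = 0.138), which move cholesterol out of lysosomes, were not called. In all, 5 of the 12 listed genes of this list fell and none rose, against 11.8% and 9.5% of all genes (median log2 -0.37). Without WT chow 1, WT HFD 1 or WT HFD 3 the count of falls was 3.

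LXR receptors and targets were higher on HFD. Of 15 listed genes, 10 rose, none fell and 5 were not called, against 9.5% of all genes that rose (median log2 0.59; 9 rises and 0.47 in the length-corrected fit). Nr1h3, which encodes LXR alpha, was at 59.9, 62.5 and 68.3 CPM on chow and 94.1, 85.3 and 108 CPM on HFD (log2 fold change 0.59 ± 0.12 (SE), adjusted p = 0.0111). Nr1h2, which encodes LXR beta, was not called (log2 0.03, adjusted p = 0.837). The cholesterol exporter Abca1 (chr4:53030789-53159988) was at 265, 470 and 200 CPM on chow and 604, 533 and 447 CPM on HFD (log2 fold change 0.76 ± 0.25 (SE), adjusted p = 0.0438). WT chow 2 overlapped the HFD range for this gene. In the length-corrected fit its difference was larger (log2 1.16, adjusted p = 0.00667). Abcg1, which passes cholesterol to mature HDL, was at 326, 412 and 274 CPM on chow and 541, 503 and 438 CPM on HFD (log2 fold change 0.55 ± 0.18 (SE), adjusted p = 0.0424).

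Among the lipid-remodelling targets, Scd1 (chr19:44394450-44407709), the stearoyl-CoA desaturase, was at 8.12, 7.25 and 5.95 CPM on chow and 18.7, 16.1 and 14.6 CPM on HFD (log2 fold change 1.21 ± 0.15 (SE), adjusted p = 0.00207). Scd2, its paralog, was at 35.5, 42.5 and 27.9 CPM on chow and 93.7, 87.2 and 62.6 CPM on HFD (log2 fold change 1.20 ± 0.22 (SE), adjusted p = 0.01). Lpcat3, which puts polyunsaturated chains into phospholipids, was at 60.9, 62 and 68.8 CPM on chow and 107, 100 and 97.6 CPM on HFD (log2 fold change 0.67 ± 0.10 (SE), adjusted p = 0.00388). These 3 genes and the small GTPase gene Arl4c (log2 0.64, adjusted p = 0.00647) were called under all 28 alternatives. Mylip, a ubiquitin ligase that acts on lipoprotein receptors, also rose (log2 0.48, adjusted p = 0.0302), as did Apoc2 (log2 0.77, adjusted p = 0.0244) and Smpdl3a (log2 0.46, adjusted p = 0.04). Apoe, the abundant apolipoprotein, was at 10891, 13811 and 16400 CPM on chow and 18816, 14850 and 16701 CPM on HFD (log2 fold change 0.29 ± 0.16 (SE), adjusted p = 0.182) and was not called.

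A pair of genes outside the list but tied to LXR in earlier work also rose on HFD. Mexis, a noncoding RNA transcribed beside Abca1, was at 7.5, 14.3 and 8.89 CPM on chow and 35.6, 31.7 and 35.8 CPM on HFD (log2 fold change 1.75 ± 0.25 (SE), adjusted p = 0.00308). Eepd1, a membrane-associated protein of cholesterol efflux, was at 67.6, 77.4 and 72.6 CPM on chow and 130, 122 and 118 CPM on HFD (log2 fold change 0.77 ± 0.10 (SE), adjusted p = 0.00215). Both were named by the size or the p-value of their change, so their rise is no separate support for the LXR list. Both were called under all 28 alternatives. The count of rises in the LXR list was 4 without WT chow 1 or WT HFD 3 and 5 without WT HFD 1. It was 7, 8 and 9 without WT chow 2, WT HFD 2 and WT chow 3.

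**Figure D2:**
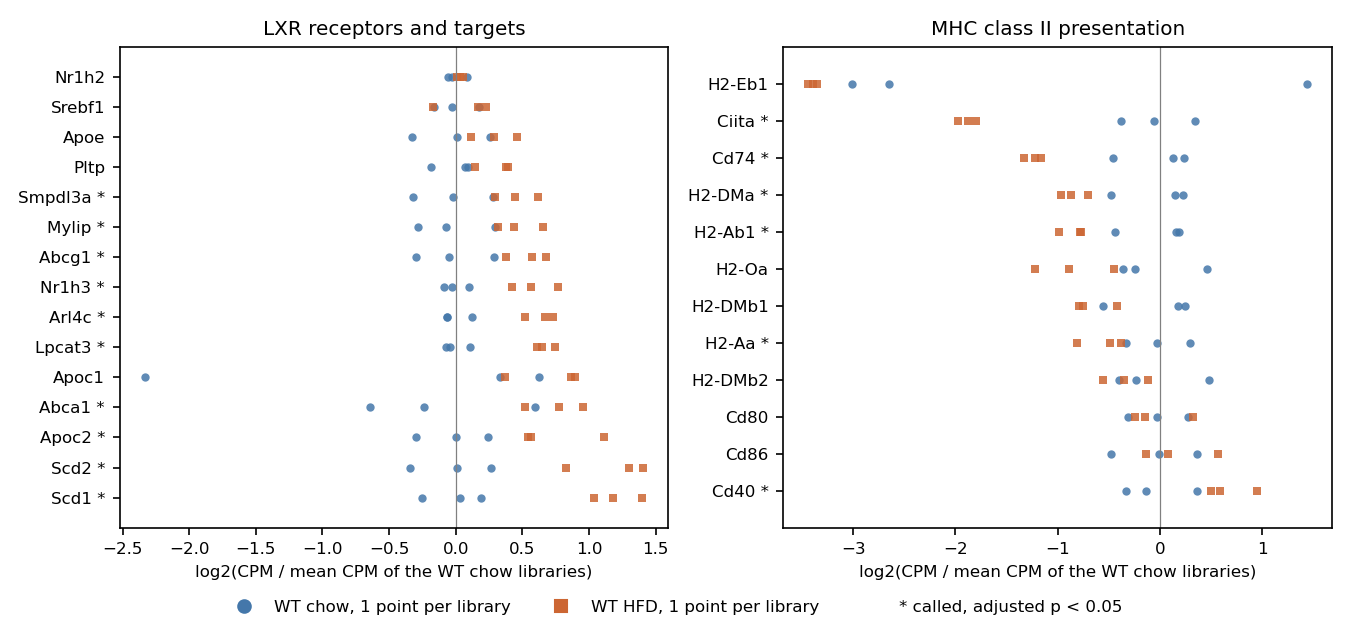
Expression of the 15 LXR receptors and targets and the 12 genes of MHC class II presentation in each WT library, as log2 of CPM over the WT chow mean; circles are chow, squares are HFD, and an asterisk marks an adjusted p under 0.05. Scd1, Scd2, Lpcat3 and Nr1h3 are higher in every HFD library than in every chow library, Ciita and Cd74 are lower in every HFD library, and 1 chow library stands apart for H2-Eb1.

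Of 17 fatty acid synthesis genes, 3 rose and 5 fell (median log2 -0.18), against 9.5% and 11.8% of all genes. The rises were Scd1, Scd2 and the elongase gene Elovl1 (log2 0.46, adjusted p = 0.0223). Fasn, the fatty acid synthase, was at 4.41, 3.53 and 1.88 CPM on chow and 1.1, 1.48 and 1.56 CPM on HFD (log2 fold change -1.25 ± 0.32 (SE), adjusted p = 0.0226), and was not called in the length-corrected fit (log2 -0.66, adjusted p = 0.0916). Fads1, the delta-5 desaturase of polyunsaturated fatty acids, was at 38.7, 18.3 and 13.7 CPM on chow and 7.22, 7.88 and 6.17 CPM on HFD (log2 fold change -1.74 ± 0.31 (SE), adjusted p = 0.00853). WT chow 1 held the highest Fads1 value, and the other 2 chow libraries still exceeded every HFD library. Acly (log2 -0.64, adjusted p = 0.0202), Elovl6 (log2 -1.16, adjusted p = 0.0132) and Acsl5 (log2 -0.34, adjusted p = 0.0377) fell too. The count of falls was 0 without WT HFD 3, 1 without WT chow 1, and 2 without WT HFD 1 or WT chow 2. In fatty acid oxidation, 4 of 19 rose and none fell (Etfb, Hadhb, Acaa2 and Slc25a20, at log2 0.34 to 0.66). These are enzymes and a carrier of mitochondrial beta-oxidation. No gene of the list rose without WT chow 1, WT chow 2, WT HFD 1 or WT HFD 3, 2 rose without WT HFD 2 and 9 without WT chow 3.

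Lipoprotein and scavenger receptor genes changed in both directions. Cd36, the receptor for oxidised LDL and fatty acids, was at 2951, 2926 and 2842 CPM on chow and 3508, 3724 and 4933 CPM on HFD (log2 fold change 0.48 ± 0.15 (SE), adjusted p = 0.0398). Msr1 (log2 0.44, adjusted p = 0.0445), Olr1 (log2 1.09, adjusted p = 0.0111) and Cxcl16 (log2 0.57, adjusted p = 0.0239) rose as well. Scarb1, the HDL receptor, was at 48.9, 48.7 and 43.3 CPM on chow and 29.3, 29.4 and 26.2 CPM on HFD (log2 fold change -0.73 ± 0.16 (SE), adjusted p = 0.0134), and Stab1 fell (log2 -1.10, adjusted p = 0.0123). In all, 4 of 12 genes of the list rose and 3 fell, against 9.5% and 11.8% of all genes. In the length-corrected fit Cd36, Msr1 and Stab1 were not called. The count of rises was 0 without WT chow 1 or WT HFD 3, and 1 without WT chow 2, WT HFD 1 or WT HFD 2.

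Lipid droplet genes showed 1 large rise. Hilpda, a droplet protein that restrains triglyceride lipase, was at 67.6, 72.8 and 72.5 CPM on chow and 197, 147 and 184 CPM on HFD (log2 fold change 1.31 ± 0.15 (SE), adjusted p = 0.00112), and was called under all 28 alternatives. Plin2, which coats droplets, was at 2380, 2078 and 1986 CPM on chow and 3160, 2686 and 2953 CPM on HFD (log2 fold change 0.45 ± 0.11 (SE), adjusted p = 0.0179). Soat1, which esterifies cholesterol for storage, was at 578, 569 and 485 CPM on chow and 408, 394 and 405 CPM on HFD (log2 fold change -0.44 ± 0.11 (SE), adjusted p = 0.0219), and Mgll, the monoglyceride lipase, fell (log2 -1.12, adjusted p = 0.0222). Plin2, Soat1 and Mgll were not called in the length-corrected fit. Among the other 13 listed genes of storage and lipolysis none was called. In all, 2 of 17 rose and 2 fell, near the 9.5% and 11.8% of all genes. Rises numbered 1 without WT chow 2, WT HFD 1 or WT HFD 3 and 4 without WT chow 3, and falls 0 without WT chow 1, WT chow 2 or WT HFD 3, 1 without WT HFD 1 or WT HFD 2 and 3 without WT chow 3.

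Genes of the lipid-associated macrophage state rose in part. Of 18 listed, 6 rose and 1 fell (median log2 0.31, and 0.13 in the length-corrected fit), against 9.5% and 11.8% of all genes. Trem2, the lipid-sensing receptor of that state, was at 535, 610 and 696 CPM on chow and 915, 834 and 971 CPM on HFD (log2 fold change 0.56 ± 0.14 (SE), adjusted p = 0.0218). Its HFD values all exceeded the chow values. Cd9 (log2 0.68, adjusted p = 0.0107), Lgals3 (log2 0.41, adjusted p = 0.035), Ctsl (log2 0.40, adjusted p = 0.0372) and Mmp12 (log2 0.86, adjusted p = 0.0324) rose. Itgax, the CD11c integrin chain often used as a marker of such cells, fell (log2 -0.78, adjusted p = 0.0312). Gpnmb (log2 -0.37, adjusted p = 0.0747) was not called. The length-corrected fit counted 3 rises, Trem2, Ctsl and Mmp12. The count was 0 without WT chow 1 or WT HFD 3, 1 without WT chow 2 or WT HFD 1, and 2 without WT HFD 2.

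Among PPAR and RXR receptors with their coregulators, 1 of 11 listed genes rose and 4 fell, against 9.5% and 11.8% of all genes. The list's median log2 was -0.53, and -0.12 in the length-corrected fit. Pparg, which drives Cd36 and lipid uptake genes, was at 84.2, 83.9 and 118 CPM on chow and 139, 112 and 167 CPM on HFD (log2 fold change 0.55 ± 0.17 (SE), adjusted p = 0.0377), and WT chow 3 overlapped the HFD range. Rxra, the shared partner of LXR and PPAR, was at 83.2, 81.9 and 58.6 CPM on chow and 36.4, 43 and 39.2 CPM on HFD (log2 fold change -0.91 ± 0.16 (SE), adjusted p = 0.00853). Ppard fell (log2 -0.77, adjusted p = 0.0123), and so did the coactivator genes Ncoa1 (log2 -0.66, adjusted p = 0.0378) and Ncoa2 (log2 -0.66, adjusted p = 0.0219). Rxra, Ppard and Ncoa2 were called in the length-corrected fit, and Pparg and Ncoa1 were not. The count of falls was 0 without WT chow 1 or WT HFD 3, 1 without WT chow 2, 2 without WT HFD 1 and 8 without WT chow 3.

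Several genes of antigen presentation by MHC class II were lower on HFD. Of 12 listed, 5 fell and 1 rose, against 11.8% and 9.5% of all genes. The median log2 was -0.73, with 6 falls and -0.94 in the length-corrected fit. Ciita (chr16:10480014-10531064), the master coactivator of class II genes, was at 14.2, 10.7 and 8.56 CPM on chow and 3.2, 3.03 and 2.83 CPM on HFD (log2 fold change -1.88 ± 0.27 (SE), adjusted p = 0.00308). Cd74, the invariant chain, was at 956, 588 and 882 CPM on chow and 346, 321 and 362 CPM on HFD (log2 fold change -1.24 ± 0.22 (SE), adjusted p = 0.00803). Both were called under all 28 alternatives. The alpha and beta chain genes H2-Aa (log2 -0.55, adjusted p = 0.0386) and H2-Ab1 (log2 -0.84, adjusted p = 0.0176) and the peptide-exchange gene H2-DMa (log2 -0.84, adjusted p = 0.0302) fell. Cd40, a costimulatory receptor, rose (log2 0.70, adjusted p = 0.0411). H2-Eb1 was at 194, 8.88 and 11.4 CPM on chow and 6.8, 6.58 and 6.98 CPM on HFD and was not called (log2 fold change -3.40 ± 1.51 (SE), adjusted p = 0.132). WT chow 1 stood far above the other 5 libraries. The labels give no strain, and whether an inherited difference between the mice enters the H2 genes was not tested.

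Class II genes are also expressed by B cells and dendritic cells, and the summed markers of both were lower on HFD. B-cell markers summed to 109 to 169 CPM on chow and 53.7 to 90.4 CPM on HFD, with 2 of 7 listed markers lower, Ighm (log2 -0.98, adjusted p = 0.0337) among them; these falls numbered 0, 0 and 1 without WT chow 1, 2 and 3 and 0, 1 and 0 without WT HFD 1, 2 and 3. Dendritic-cell markers summed to 37.1 to 59.4 CPM on chow and 23.9 to 33.7 CPM on HFD, with Flt3 lower among 8 listed (log2 -0.96, adjusted p = 0.0226). Of all genes 11.8% fell, and 1 of 8 is near that share. In bulk RNA, fewer cells of a type and less RNA per cell cannot be told apart. The lowest marker of either list, Jchain, was under 1 CPM in all 6 WT libraries, and no marker of either list was at 0 there. The part of these cells in the class II result was not tested. Without WT chow 1, WT HFD 1 or WT HFD 3 the list counted 2 falls, and 3 without WT HFD 2 or WT chow 3.

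Of 14 genes of alternative activation, 4 fell and 2 rose (median log2 -0.58), against 11.8% and 9.5% of all genes. Cd163, the haemoglobin scavenger receptor, was at 15.6, 19.7 and 18.5 CPM on chow and 6.02, 7.02 and 4.6 CPM on HFD (log2 fold change -1.61 ± 0.23 (SE), adjusted p = 0.00349), and was called under all 28 alternatives. Mrc1, the mannose receptor, was at 499, 664 and 382 CPM on chow and 266, 312 and 271 CPM on HFD (log2 fold change -0.86 ± 0.16 (SE), adjusted p = 0.0106). The lectin genes Mgl2 (log2 -1.10, adjusted p = 0.0207) and Clec10a (log2 -0.58, adjusted p = 0.0206) fell. Folr2 (log2 0.86, adjusted p = 0.0304) and Tgm2 (log2 0.71, adjusted p = 0.034) rose. Arg1 (log2 0.69, adjusted p = 0.0718) and Retnla (log2 -0.90, adjusted p = 0.172), enzymes and secreted markers of the same state, were not called. The count of falls was 1 without WT HFD 3 and 2 without WT chow 1, WT HFD 1 or WT HFD 2. The count of rises was 0 without WT chow 1, WT HFD 1 or WT HFD 3, and 1 without any 1 of the other WT libraries.

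Transcription factors of macrophage identity changed both ways. Of 14 listed identity genes, 2 rose and 4 fell, against 9.5% and 11.8% of all genes. Maf, which supports the tissue-macrophage programme, was at 120, 143 and 117 CPM on chow and 75.1, 72.6 and 71.3 CPM on HFD (log2 fold change -0.79 ± 0.11 (SE), adjusted p = 0.00287), a call under all 28 alternatives. Irf8 (log2 -0.63, adjusted p = 0.0203), Runx1 (log2 -0.53, adjusted p = 0.0284) and the efferocytosis receptor gene Mertk (log2 -0.65, adjusted p = 0.0183) fell. Spi1, which encodes PU.1, rose (log2 0.36, adjusted p = 0.0318), and Cebpb rose (log2 0.75, adjusted p = 0.0346). Adgre1, the gene of the F4/80 surface marker, was not called (log2 -0.19, adjusted p = 0.181). The count of falls was 1 without WT chow 1, WT chow 2 or WT HFD 3, and 2 without WT HFD 1.

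Of 21 cytokine and chemokine genes, 2 rose (Il1rn and Cxcl16) and none fell, where 21.3% of all genes were called in either direction. Il1rn, the interleukin-1 receptor antagonist, was at 209, 147 and 185 CPM on chow and 228, 335 and 453 CPM on HFD (log2 fold change 0.91 ± 0.27 (SE), adjusted p = 0.034). Of 17 genes of NF-kB and the inflammasome, 2 rose and 2 fell, among them Nfkb1 (log2 -0.51, adjusted p = 0.0278) and Nlrc4 (log2 -0.62, adjusted p = 0.029), lower, and Pycard (log2 0.49, adjusted p = 0.0457), higher. Of 21 Toll-like receptor and adaptor genes, 4 fell and Cd14 rose (log2 0.42, adjusted p = 0.0399). The counts of these 2 lists are near the share of all genes in the uncorrected fit. In the length-corrected fit 6 of the 21 Toll-like receptor and adaptor genes fell and 1 rose. Of all genes, 7.72% fell and 5.21% rose in that fit. In the NF-kB list 2 of 17 fell and none rose there. Tlr9, the endosomal DNA sensor, was at 9.48, 5.72 and 5.22 CPM on chow and 1.26, 1.55 and 0.782 CPM on HFD (log2 fold change -2.51 ± 0.38 (SE), adjusted p = 0.00489). It was called under all 28 alternatives. Tlr9 lies within 5 Mb of Rpl29 on chromosome 9, in a stretch where the WT HFD libraries lay apart from all other 9 libraries in 17.2% of genes, Tlr9 among them, against 1.24% of all genes. The labels give no strain, so for genes of this stretch an inherited difference between the mice and the diet cannot be told apart. Falls in the Toll-like receptor list numbered 1, 1 and 7 without WT chow 1, 2 and 3 and 1, 2 and 1 without WT HFD 1, 2 and 3. Rises among cytokines numbered 0, 0 and 6 without WT chow 1, 2 and 3 and 1, 1 and 0 without WT HFD 1, 2 and 3, and falls in the NF-kB list 0, 0 and 5 without WT chow 1, 2 and 3 and 1, 1 and 0 without WT HFD 1, 2 and 3.

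Interferon-stimulated genes rose in 5 of 25 and fell in 1. Of all genes, 9.5% rose, 11.8% fell and 21.3% were called in either direction. Irf7, the interferon regulatory factor, was at 41.4, 49.6 and 46.1 CPM on chow and 68, 69 and 98.7 CPM on HFD (log2 fold change 0.78 ± 0.17 (SE), adjusted p = 0.0134). Oas1a (log2 0.84, adjusted p = 0.0187) and Oasl1 (log2 0.88, adjusted p = 0.0208) rose, and Stat2 (log2 -0.68, adjusted p = 0.0111) fell. The count of rises was 0 without WT chow 1 or WT HFD 3, and 1, 3 and 8 without WT chow 2, WT HFD 1 and WT chow 3. Immediate early genes rose in 5 of 17, with Fos at 58.7, 47.3 and 36.6 CPM on chow and 98.5, 80.6 and 80 CPM on HFD (log2 fold change 0.86 ± 0.19 (SE), adjusted p = 0.0159) and Junb at 87.5, 75.9 and 82.7 CPM on chow and 131, 125 and 117 CPM on HFD (log2 fold change 0.60 ± 0.12 (SE), adjusted p = 0.0114). Jun fell (log2 -0.38, adjusted p = 0.0345). Fos and Jun were not called in the length-corrected fit (log2 0.69, adjusted p = 0.0589 for Fos). Heat shock chaperones rose in 3 of 12, among them Hsp90aa1 (log2 0.63, adjusted p = 0.0217). Rises of immediate early genes numbered 0 without WT chow 2, 1 without WT HFD 1 or WT HFD 3 and 2 without WT chow 1. Those of chaperones numbered 0 without WT chow 1 or WT HFD 3, 1 without WT chow 2 or WT HFD 1 and 5 without WT chow 3.

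Glycolysis genes rose in 9 of 20 and fell in 2, against 9.5% and 11.8% of all genes. Their median log2 was 0.31, with 7 rises and 0.39 in the length-corrected fit. Ldha, the lactate dehydrogenase, was at 711, 732 and 752 CPM on chow and 1112, 1195 and 1211 CPM on HFD (log2 fold change 0.68 ± 0.10 (SE), adjusted p = 0.00541). Tpi1 (log2 0.75, adjusted p = 0.00647), Pgk1 (log2 0.74, adjusted p = 0.0111), Pgam1 (log2 0.51, adjusted p = 0.0132), Pfkp (log2 0.37, adjusted p = 0.0241), Pkm (log2 0.44, adjusted p = 0.0476) and the lactate exporter gene Slc16a3 (log2 0.72, adjusted p = 0.0393) rose. Gapdh was at 29.5, 27 and 34.5 CPM on chow and 56, 59.5 and 50.8 CPM on HFD (log2 fold change 0.87 ± 0.14 (SE), adjusted p = 0.00644), but its reads can be shared with processed pseudogenes, of which Gm12070 (log2 0.91, adjusted p = 0.00308) and Gapdh-ps15 (log2 0.96, adjusted p = 0.00308) moved alongside, so its own level is uncertain. Hk2, a hexokinase gene, fell, with a p close to the threshold (log2 -0.52, adjusted p = 0.048). With library totals as the scale 5 glycolysis genes rose and 4 fell. Falls numbered 0, 0 and 5 without WT chow 1, 2 and 3 and 0, 1 and 0 without WT HFD 1, 2 and 3. For rises, without WT chow 1, WT chow 2, WT HFD 1, WT HFD 2 and WT HFD 3 the counts were 4, 5, 5, 5 and 3, and without WT chow 3 it was 6.

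The largest group count was that of respiratory chain and ATP synthase genes. Of 78 nuclear-encoded subunits, 49 rose and none fell, against 9.5% and 11.8% of all genes (median log2 0.61). Cox6c, a subunit of complex IV, was at 84.4, 92.9 and 122 CPM on chow and 173, 168 and 192 CPM on HFD (log2 fold change 0.83 ± 0.19 (SE), adjusted p = 0.0178), and Ndufb8, of complex I, at 77.2, 79.1 and 101 CPM on chow and 141, 136 and 171 CPM on HFD (log2 fold change 0.80 ± 0.18 (SE), adjusted p = 0.0152). These transcripts are short, and short transcripts as a class were higher on HFD. In the length-corrected fit 10 of the 78 rose, Cox6c and Ndufb8 among them, against 5.21% of all genes, and the median was 0.23. The count was 0 without WT chow 1, WT chow 2 or WT HFD 3, 4 without WT HFD 1, 30 without WT HFD 2 and 70 without WT chow 3.

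Mitochondrially encoded RNA moved the same way before correction. It made up 3.12%, 3.19% and 3.3% of counts in the chow libraries and 4.99%, 4.4% and 4.07% in the HFD libraries. Of 15 mitochondrially encoded genes, 13 rose, against 9.5% of all genes (median log2 0.60). In the length-corrected fit none of the 13 genes with a length was called, and their median went from 0.64 to -0.06. The ribosomal RNA genes mt-Rnr1 and mt-Rnr2 had no length and so kept their log2 fold changes of 0.57 and 0.55, with adjusted p = 0.0653 and 0.0518 in that fit. Cytosolic ribosomal protein genes, also short, rose in 11 of 82 and fell in 1 (Rpl29), against 9.5% and 11.8% of all genes. After correction 1 of them rose and 2 fell, against 5.21% and 7.72% of all genes. Before correction, rises of ribosomal protein genes numbered 0 without WT chow 1, WT chow 2, WT HFD 1 or WT HFD 3, 6 without WT HFD 2 and 68 without WT chow 3.

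Transcript length followed the diet difference across the whole table. The median length of the longest annotated transcript model per gene was 1846 nt for genes that rose, 4996 nt for genes that fell and 3367 nt for all. In the shortest of 5 equal length classes 585 rose and 32 fell (median log2 0.32), and in the longest 29 rose and 662 fell (median log2 -0.37). After correction these medians were -0.02 and -0.08. The cause of this trend was not tested. After correction the sterol list counted 10 falls against 13 and the LXR list 9 rises against 10, while the respiratory chain list counted 10 rises against 49. Named genes that were called as designed and not after correction were Acaa2, Acsl5, Alox15, Apoc2, Ccr2, Cd14, Cd36, Cd40, Cd9, Cebpb, Ctsk, Etfb, Fasn, Fdft1, Flt3, Folr2, Fos, Gas6, Hk2, Ighm, Il1rn, Itgax, Jun, Lgals3, Lss, Mgll, Msr1, Ncoa1, Nudt16, Pgam1, Pkm, Plin2, Plxnd1, Pparg, Pycard, Runx1, Slc25a20, Smpdl3a, Soat1, Stab1, Txnrd1, Xbp1, mt-Rnr1 and mt-Rnr2. Ighm, mt-Rnr1 and mt-Rnr2 among these have no length, so their fold changes were not corrected.

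**Figure D3:**
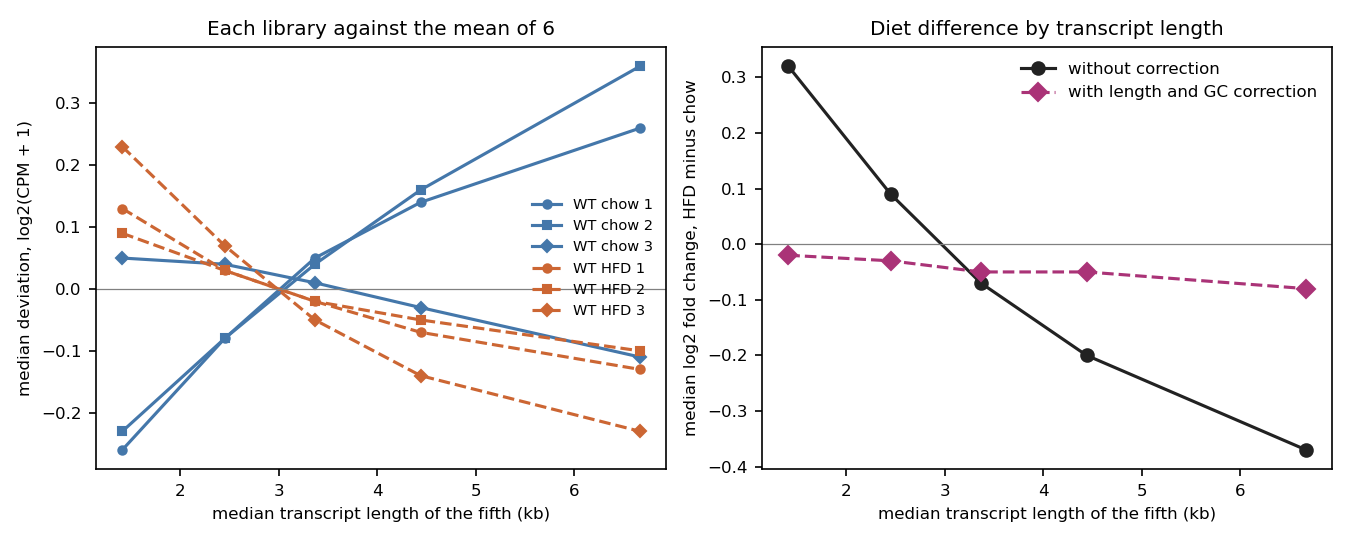
Left, the median deviation of each WT library from the mean of the 6, on the log2(CPM + 1) scale, for 5 equal classes of genes by transcript length (kb). Right, the median log2 fold change, HFD minus chow, for the same classes without and with the length and GC correction; the uncorrected fit runs from 0.32 in the shortest class to -0.37 in the longest and the corrected fit stays between -0.02 and -0.08.

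The following lists of signalling genes had fewer calls after the correction. Of all genes, 11.8% fell without it and 7.72% with it, and 21.3% were called in either direction without it. Of 15 plexin, semaphorin and neuropilin genes, 5 fell, and none was called after correction. Plxnd1, a semaphorin receptor, was at 158, 175 and 113 CPM on chow and 58.8, 70.3 and 82 CPM on HFD (log2 fold change -1.08 ± 0.20 (SE), adjusted p = 0.0104). Of 19 genes of protein kinase C and diacylglycerol signalling, 5 fell and 1 did after correction, Plcg1 (log2 -0.72, adjusted p = 0.0105), a phospholipase that makes diacylglycerol. Prkce itself was not called between diets (log2 -0.58, adjusted p = 0.165). Chemotactic receptor and integrin genes fell in 4 of 23, and in 2 after correction. None rose, and these counts are near the shares of all genes. Ccr2, the monocyte chemokine receptor, was at 236, 245 and 246 CPM on chow and 148, 164 and 167 CPM on HFD (log2 fold change -0.60 ± 0.16 (SE), adjusted p = 0.0231), and Itga4, an integrin chain of leukocyte adhesion, at 152, 135 and 101 CPM on chow and 70.3, 68 and 66.8 CPM on HFD (log2 fold change -0.92 ± 0.16 (SE), adjusted p = 0.00803). Itga4 and Cx3cr1 (log2 -0.72, adjusted p = 0.0489) stayed called after correction, and Ccr2 did not (log2 -0.50, adjusted p = 0.0569). Without WT chow 1 and WT HFD 3 the plexin list counted 0 and 1 falls, the kinase list 0 and 0, and the receptor list 1 and 0. The counts were 1 in each list without WT chow 2 or WT HFD 1, and 3 in each without WT HFD 2. Without WT chow 3 they were 8, 9 and 5.

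**Figure D4:**
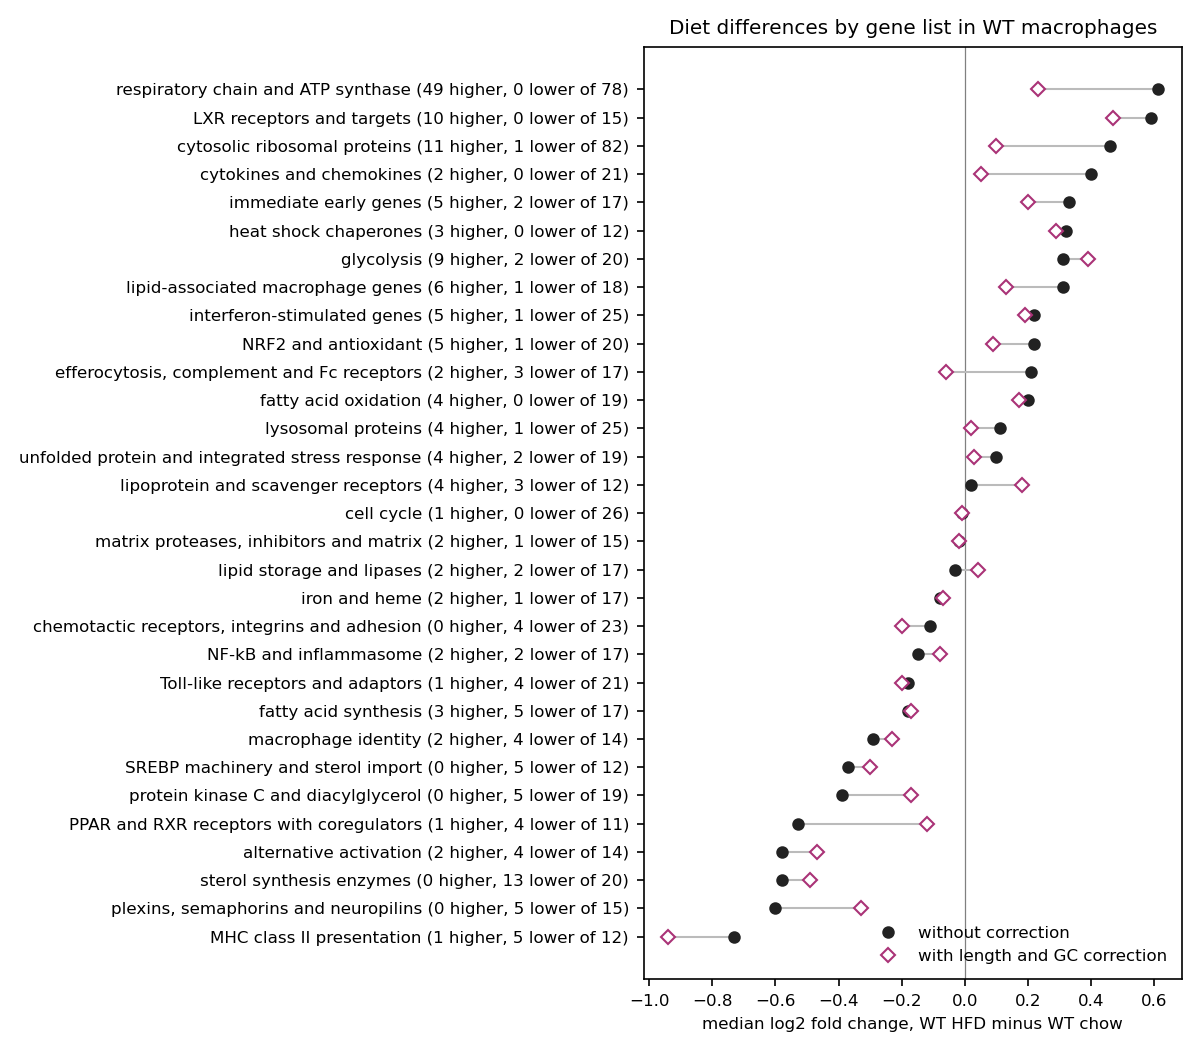
Median log2 fold change, WT HFD minus WT chow, of the listed members of 31 gene lists; filled circles are without, open diamonds with the length and GC correction, and the labels give the members called without it. MHC class II presentation lies at -0.73 and LXR receptors and targets at 0.59, and the respiratory chain median moves from 0.61 to 0.23 with the correction.

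The remaining lists are read against 9.5% of all genes that rose and 11.8% that fell. Lysosomal protein genes rose in 4 of 25 and fell in 1, with Ctsk (log2 0.67, adjusted p = 0.0158) higher and Grn (log2 -0.64, adjusted p = 0.0207), the progranulin gene, lower. NRF2 and antioxidant genes rose in 5 of 20 and fell in 1. Gpx1, the cytosolic glutathione peroxidase, was at 1795, 2029 and 2277 CPM on chow and 4011, 4093 and 4879 CPM on HFD (log2 fold change 1.09 ± 0.15 (SE), adjusted p = 0.00308), and Txnrd1 fell (log2 -0.59, adjusted p = 0.0316). Gpx1 lies in the same stretch of chromosome 9 as Tlr9, with the same limit, but its WT HFD values overlapped those of meKO HFD, at 4263, 4621 and 3897 CPM. In the unfolded protein and integrated stress response list 4 of 19 rose and 2 fell; the sensor genes Ern1 (log2 -0.97, adjusted p = 0.0193) and Eif2ak3 (log2 -0.66, adjusted p = 0.0213) fell and Xbp1 (log2 0.41, adjusted p = 0.0431) rose. Matrix genes rose in 2 of 15 and fell in 1. Mmp9, a gelatinase, was at 33.4, 20.4 and 19.6 CPM on chow and 5.92, 7.61 and 5.41 CPM on HFD (log2 fold change -1.96 ± 0.21 (SE), adjusted p = 0.000678). Without WT chow 3 the matrix list counted 3 falls. Iron genes changed in 3 of 17, and cell cycle genes in 1 of 26. In the list of efferocytosis, complement and Fc receptors 2 of 17 rose and 3 fell, among them the Mertk ligand gene Gas6 (log2 -1.08, adjusted p = 0.0218). Single libraries moved these counts too. Rises of lysosomal genes numbered 0, 0 and 7 without WT chow 1, 2 and 3 and 1, 2 and 0 without WT HFD 1, 2 and 3, and those of antioxidant genes 1, 1 and 5 without WT chow 1, 2 and 3 and 1, 3 and 1 without WT HFD 1, 2 and 3. Rises in the stress response list numbered 0, 0 and 3 without WT chow 1, 2 and 3 and 1, 3 and 0 without WT HFD 1, 2 and 3, rises of matrix genes 0, 0 and 1 without WT chow 1, 2 and 3 and 0, 1 and 0 without WT HFD 1, 2 and 3, and falls in the efferocytosis list 0, 0 and 4 without WT chow 1, 2 and 3 and 1, 2 and 0 without WT HFD 1, 2 and 3.

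The genes with the largest changes at 1 CPM or more were of mixed kinds. Rpl29, a ribosomal protein gene whose reads can be shared with processed copies (chr9:106428889-106431568), had the largest fall among genes with a symbol, with 130, 67.2 and 97.5 CPM on chow and 6.51, 6.89 and 6.65 CPM on HFD (log2 fold change -3.88 ± 0.24 (SE), adjusted p = 2.58e-06). Acp3, an acid phosphatase gene, and Tlr9, both within 5 Mb of Rpl29 on chromosome 9, fell by 3.32 and 2.51 on the log2 scale. The limit given above for that stretch of chromosome 9 holds for Rpl29, Acp3 and Tlr9. Gt(ROSA)26Sor, the transcript of the Rosa26 locus used for transgenes, was at 10.6, 9.96 and 13.9 CPM on chow and 89.1, 50.7 and 46.6 CPM on HFD (log2 fold change 2.43 ± 0.29 (SE), adjusted p = 0.00139), and the labels name no Rosa26 allele. Gngt2, a G-protein gamma subunit, was at 93.3, 126 and 112 CPM on chow and 318, 286 and 367 CPM on HFD (log2 fold change 1.55 ± 0.16 (SE), adjusted p = 0.000678). Pianp (log2 -2.09, adjusted p = 0.0232) and the histamine receptor gene Hrh1 (log2 -2.12, adjusted p = 0.00754) were among the other large falls.

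Several of the largest rises were genes at a few CPM that stromal or mesothelial cells express. Tm4sf1 (0.82, 0.719 and 0.727 CPM on chow and 3.43, 2.58 and 6.8 CPM on HFD), Timp3 (log2 1.62, adjusted p = 0.0207) and Krt8 (log2 1.73, adjusted p = 0.0223) were of this kind. Mesothelial and fibroblast markers summed to 53.3 to 94.2 CPM on chow and 97.6 to 143 CPM on HFD. Krt8, Krt19 (log2 1.35, adjusted p = 0.0178) and Dcn (log2 0.86, adjusted p = 0.0159) rose among 12 listed, against 9.5% of all genes. These rises numbered 0, 2 and 3 without WT chow 1, 2 and 3 and 0, 3 and 0 without WT HFD 1, 2 and 3. The defining mesothelial marker Msln stayed under 1 CPM in all 6 WT libraries. Resident large peritoneal macrophage markers summed to 306 to 901 CPM on chow and 1120 to 1810 CPM on HFD, which is mainly Cd5l, at 155, 506 and 490 CPM on chow and 911, 1346 and 1486 CPM on HFD (log2 fold change 1.70 ± 0.55 (SE), adjusted p = 0.0536). Cd5l is also an LXR target. Of the other markers of those cells, Timd4 (log2 -0.65, adjusted p = 0.256) and Prg4 (log2 -1.29, adjusted p = 0.133) were not called and Alox15 fell (log2 -1.91, adjusted p = 0.0498). Neutrophil markers summed to 156 to 200 CPM on chow and 141 to 150 CPM on HFD, with Csf3r the largest member of the sum. Of 7 listed, 2 rose and 2 fell (median log2 0.27), against 9.5% and 11.8% of all genes. None of 5 adipocyte and none of 6 liver markers was in the table. The part of these cell types in the diet difference was not tested.

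A set of 55 genes (0.446% of those tested) was called under the fit as designed and all 28 alternatives, 22 of them higher and 33 lower. From sterol and LXR control it held Srebf2, Sqle, Cyp51 and Stard4, lower, and Scd1, Scd2, Lpcat3, Arl4c, Mexis and Eepd1, higher. From immune function it held Ciita, Cd74, Cd163, Mmp9, Tlr9, Maf and the phagocyte receptor gene Cd93 (log2 -0.82, adjusted p = 0.00647), lower. Selenop, the secreted selenium carrier, was at 4231, 4606 and 5463 CPM on chow and 2896, 2582 and 2444 CPM on HFD (log2 fold change -0.85 ± 0.14 (SE), adjusted p = 0.00647). Anxa2, a membrane-binding annexin, was at 1240, 1349 and 1385 CPM on chow and 2270, 2455 and 2711 CPM on HFD (log2 fold change 0.90 ± 0.13 (SE), adjusted p = 0.00308). S100a6 (log2 1.02, adjusted p = 0.00599), Emp3 (log2 1.01, adjusted p = 0.006), Fxyd5 (log2 0.75, adjusted p = 0.00647) and Gpx1 were higher too. Of the 55, 4 lie in the chromosome 9 stretch: Rpl29, its neighbour Abhd14b, Tlr9 and Gpx1.

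The same diet contrast in meKO macrophages uses 6 separate libraries. It called 13 genes (0.105%), and 9 of those 13 were among the 2634 called in WT. The interaction test, which asks whether the diet effect differed between the genotypes, called 2 genes (0.0162%), Rpl29 and an unnamed gene, with 756 genes at an unadjusted p under 0.05. The other genes were tested as well and were not called. The larger count in WT therefore does not show a difference between genotypes for them. Of the 55 genes, chosen on the WT contrast, 53 had the same sign in meKO, and the exceptions were Rpl29 and Gt(ROSA)26Sor. The share of all genes with the same sign in both genotypes was not counted, so 53 of 55 has no baseline here. Scd1 differed by 1.53 in meKO (adjusted p = 0.002) against 1.21 in WT. Mexis (1.63), Cd163 (-1.53), Mmp9 (-1.27) and Chp2 (-1.29) were called in meKO too, on the log2 scale. For genes called in WT and not in meKO, log2 values side by side were -1.51 in WT and -1.07 in meKO for Sqle, -1.49 and -0.65 for Srebf2, -1.24 and -0.44 for Cd74, and 1.31 and 0.30 for Hilpda. By list, the meKO medians were -0.37 for sterol synthesis, 0.44 for LXR targets and -0.04 for MHC class II, against -0.58, 0.59 and -0.73 in WT. No member of these lists was called by the interaction test. The class II list includes H2-Eb1, which did not follow diet in either genotype.

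**Figure D5:**
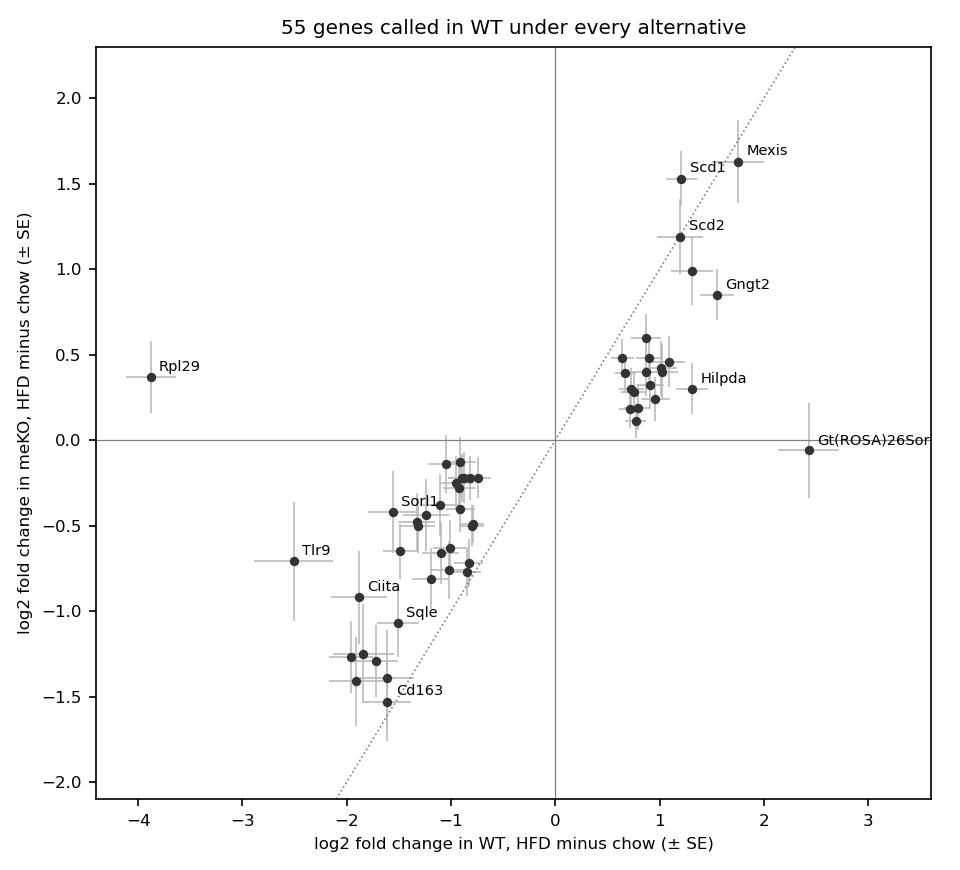
Log2 fold change, HFD minus chow, in WT (horizontal) and in meKO (vertical) for the 55 genes called in WT under every alternative, with bars of 1 SE and a dotted line of equal change. Points near the line include Scd1, Scd2, Mexis and Cd163; Rpl29 and Gt(ROSA)26Sor lie far from it, at 0.37 and -0.06 in meKO.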

How the data were processed

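Gene expression was measured by RNA-seq in 12 macrophage libraries. The authors deposited 1 table of raw counts per gene (12339 genes by Entrez identifier, 186 without a symbol). The submitters' processing notes name the mm10 build and DESeq2; the aligner, the counter and whether strand was used are not given in the sources used here. No listed gene was lost to the low-count filter.

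Counts were fitted with edgeR 4.0.16 in R 4.3.3: trimmed-mean scaling, filterByExpr, robust quasi-likelihood, 1 mean for each of 4 groups, and Benjamini-Hochberg adjustment over all genes at 0.05. CPM values use the same scaling. Replicate numbers follow accession order and name libraries only. No 2 libraries of a WT group held identical counts, and their chi-square per degree of freedom was 16.9 to 82.6. Each was counted as 1 sample. This spread may be technical and does not show that the libraries come from separate animals. Alternatives used limma 3.58.1, DESeq2 1.42.0, mgcv 1.9.3 for the length and GC trend, and each library left out. The main edgeR fit alone was tested on simulated counts. These had no length trend and no library of lower quality, so that test does not cover the dependence on single libraries. Named genes were the 12 largest changes and 8 smallest p-values per direction at 1 CPM or more with non-overlapping groups, up to 4 called members per list, 12 genes named outright (among them Prkce, Srebf1, Srebf2, Abca1, Abcg1, Apoe, Cd36, Scd1, Lyz2, Rpl29), and marker genes at 1 CPM or more. Genes called under every alternative and further list members were added to these after their values were seen. Some genes counted in the lists are not reported here by name. The members and the 31 function and 13 marker lists were chosen with earlier results of these data known. Markers of T and NK cells, eosinophils, mast cells, endothelium, platelets and red blood cells were also summed. Gene positions and promoters come from RefSeq (GRCm38.p6) and lengths from GENCODE M21.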

Additional observations from a re-analysis of the deposited data

Results flagged for a closer look

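The diet effect differed between WT and meKO in 2 genes by the interaction test. For Rpl29 the difference was -4.24 on the log2 scale (adjusted p = 2.53e-05): WT HFD libraries were at 6.51, 6.89 and 6.65 CPM, WT chow libraries at 130, 67.2 and 97.5 CPM and the 6 meKO libraries at 171 to 322 CPM. Ribosomal protein genes have processed copies elsewhere in the genome, so reads of Rpl29 can be shared. Within 5 Mb of Rpl29 the WT HFD libraries lay apart from the other 9 in 17.2% of genes, against 1.24% of all genes. The labels give no strain, so for Rpl29 an inherited difference between the mice and the diet cannot be told apart.

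The gene with Entrez identifier 100504629, which has no symbol in the table, differed by -6.48 (adjusted p = 0.00574), a fitted value that depends on the prior count. It had 106, 28 and 49 counts in the WT chow libraries, 1, 1 and 0 in the WT HFD libraries and 72 to 142 in the meKO libraries. Summed over libraries and scaled for depth, WT chow was 88.6 times WT HFD (95% exact interval 24.2 to 737, counting error only).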

How the results depend on the processing

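The number of genes called rested on single libraries. Leaving out 1 of the 12 libraries gave between 96 (without WT HFD 3) and 4921 (without WT chow 3) calls against 2634. WT chow 3 had a quality weight of 0.222 and shared its length trend with the HFD libraries. Quality weights in limma-voom gave 6411 calls and the length and GC correction 1595. With that correction and WT chow 1, WT chow 2, WT HFD 1, WT HFD 2 or WT HFD 3 left out there were 140, 418, 357, 714 and 151. The other settings, among them DESeq2 with 3451, lay within 1.5 times of 2634. The share of calls higher on HFD was 30.7% to 47.5% with 1 library left out. The interaction test called 2 genes, 1 with at least 10 counts in every library, 15 in DESeq2, 295 with quality weights, 1 to 56 with 1 library left out (1 without WT HFD 1, 56 without WT chow 3), 4 with the correction, and with it 4, 6 and 4 without WT HFD 2, WT chow 3 and WT HFD 3. The cause of these differences was not tested. Leave-one-out fits that leave 2 libraries in a group assume the spread estimated over all groups. Among named genes that were not called, the sign turned without a call in at least 1 setting for Apoe, Insig2, Nr1h2, Pmvk, Srebf1 and Tm7sf2. No paired analysis was possible because replicate numbers follow accession order only and pair no libraries.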

Other observations

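The following was looked for after the values of Rpl29 were seen. Within 5 Mb on either side of it on chromosome 9 there are 116 listed genes, of which 37 (31.9%) were called between diets in WT, against 21.3% of all genes. At 2-fold or more there were 10 (8.62%, against 2.11%). The 3 WT HFD libraries lay apart from all other 9 libraries in 20 of these genes (17.2%) and in 153 of all genes (1.24%). Nudt16, a phosphatase of inosine nucleotides in that window, was at 17.6, 53.5 and 61.6 CPM on chow and 93.1, 94.4 and 94.7 CPM on HFD in WT and at 19 to 23.9 CPM in the 6 meKO libraries. Dock3, a guanine nucleotide exchange factor gene, was at 0.264 to 1.22 CPM in WT chow, 0.0301 to 0.103 CPM in WT HFD and 0.355 to 0.933 CPM in meKO.

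H2-Eb1, a class II beta chain, did not follow diet: it was at 194 CPM in WT chow 1 and 6.58 to 11.4 CPM in the other 5 WT libraries, and at 9.14 CPM in meKO chow 1 and 125 to 388 CPM in the other 5 meKO libraries. Lyz2 was at 69.3 CPM in meKO chow 2 and at 16293 to 53835 CPM in the other 11 libraries; no WT value stood apart.

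Marker sums of other cell types, in CPM on chow and on HFD, were 15.5 to 34.7 and 22.6 to 29 for T and NK cells, 25.7 to 37.3 and 21.6 to 27.5 for eosinophils, 223 to 273 and 229 to 245 for mast cells, and 39.2 to 64 and 35.3 to 44.6 for endothelium. For platelets they were 1.49 to 2.51 and 1.39 to 2.65, and for red blood cells 2.71 to 6.79 and 3.14 to 23.3.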
